A study of Mus musculus with 5 samples.

Results

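The 9 genes described here, of 32285 gene rows in the deposited matrices, are those tied to amyloid production in 5xFAD mice: Thy1, whose promoter drives the transgenes of that line, the amyloid precursor gene App, and 7 genes for the enzymes that cut its product. They were chosen by name, and all 9 were found as single rows in each of the 5 matrices. Each library paired nuclear RNA with open chromatin from the same nuclei of mouse hippocampus, by 10x Genomics Multiome. The 5 groups were wild type (WT), 5xFAD, and 5xFAD with MAGL knocked out specifically in astrocytes, specifically in neurons, or globally. Values below are given in that order. MAGL, encoded by Mgll, is monoacylglycerol lipase, which breaks down an endocannabinoid. Each group was 1 library, so no difference below has a replicate check and no test across libraries was made. Intervals in square brackets are 95% intervals for counting error only. Strain, age, number of animals per library and the Cre drivers were not given in the sources used here.

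As background, the amyloid precursor protein is first cut outside the membrane. The beta-secretase BACE1 starts the path to amyloid-beta, while the alpha-secretase ADAM10 cuts inside the amyloid-beta stretch and so prevents its release. The stub that BACE1 leaves is then cut within the membrane by gamma-secretase, a complex of a presenilin, nicastrin, an APH-1 subunit and the presenilin enhancer. 5xFAD mice carry mutant human APP and human presenilin transgenes in a mouse Thy1 expression cassette, which is active mainly in neurons. UMIs (unique molecular identifiers, 1 per captured RNA molecule) and chromatin cut sites were assigned by the authors to mouse gene rows and mouse coordinates, so endogenous and transgene-derived molecules cannot be told apart.

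The matrices held between 4050 and 7498 nuclei per library, with medians between 14069 and 17354 UMIs per nucleus, and 3917 to 7032 nuclei were used. Cell classes were named from marker genes, each as "-like", and 9.03% to 12.3% of nuclei stayed unnamed. Clusters with a median above 2 times that of all nuclei in UMIs were left unnamed. Further excitatory-like and inhibitory-like nuclei took no subclass. In 5xFAD, 160 and 167 of 538 inhibitory-like nuclei took the Lhx6/Sst and Adarb2/Vip lineage names. Rankings of neuron classes below cover the named ones only. All 7 excitatory markers were raised in excitatory-like nuclei, but only 3 of 6 subicular markers in subicular-like nuclei, which are therefore a weakly supported class. Naming used the same lists or genes in them, so this is no independent check. The subicular-like class was a single cluster of 262 nuclei. Clusters of 422, 958 and 623 excitatory-like nuclei had the subicular marker Vwc2l among their leading genes and took no subclass. The subicular-like class thus holds only part of such nuclei. Between 29 and 63 cell barcodes were shared by any pair of libraries, at most 1.17% of the smaller one. UMIs of Xist and UMIs of Y-linked genes occurred, mostly in different nuclei, in all 5 libraries, so each held nuclei of both sexes. The mix differed: 2387, 1758, 2901, 2814 and 3347 nuclei had Xist UMIs alone, and 1730, 2501, 2077, 616 and 2427 had Y-linked UMIs alone. Mgll UMIs were not lost in the classes named by the knockout labels: excitatory-like nuclei held 73.5, 76.2, 91.9, 94.5 and 81.7 counts per 1000000 UMIs of the class (CPM) and astrocyte-like nuclei 432, 298, 430, 349 and 307. The gene rows do not say which part of Mgll a UMI came from, so the 3 libraries are called by what their labels say, in short the astrocyte-KO, neuron-KO and global-KO libraries.

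Thy1 encodes a GPI-anchored surface glycoprotein of neurons and T cells. The gene (ENSMUSG00000032011) lies on the plus strand at chr9:44043384-44048579 of mm10. Chromatin over Thy1 was far more often cut in the 4 libraries labelled 5xFAD than in WT. In the listed peak over the promoter and exon 1, all nuclei together held 23.8 CPM in WT [22.4, 25.3], here cut sites per 1000000 cut sites of the same nuclei, against 353, 441, 440 and 408. At the 3′ end of the gene the peak held 15.4 in WT against 435, 542, 559 and 548. None of the 4 libraries overlapped WT at either place.

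The Thy1 peaks did not all behave alike. The intron 1 peak, centred between 1201 and 1213 bp after the start site, held 10.5 CPM of cut sites in WT, 149 in 5xFAD and 185 in the neuron-KO library, and was not listed in the other two. A peak over exon 4 was listed in each of the 4 5xFAD libraries, with 46.5, 72.9, 81.1 and 59.9 CPM of cut sites, and not in WT. A peak upstream of the gene, centred between -3416 and -3324 bp from the start site, held 3.56, 4.82, 6.75, 5.19 and 6.35, a far smaller spread than inside the gene. Summed over peaks within 1000 bp of Thy1, in all deposited nuclei, the signal was 49.6 CPM of cut sites over 2550 bp in WT. The same sum was 982 over 3217 bp, 1064 over 2381 bp, 1265 over 3256 bp and 1008 over 2347 bp in the others, or 4.31, 4.42, 4.67 and 4.35 above WT on the log2 scale. Peaks were listed separately for each library, so the covered length differs with the number of peaks listed.

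**Figure D1:**
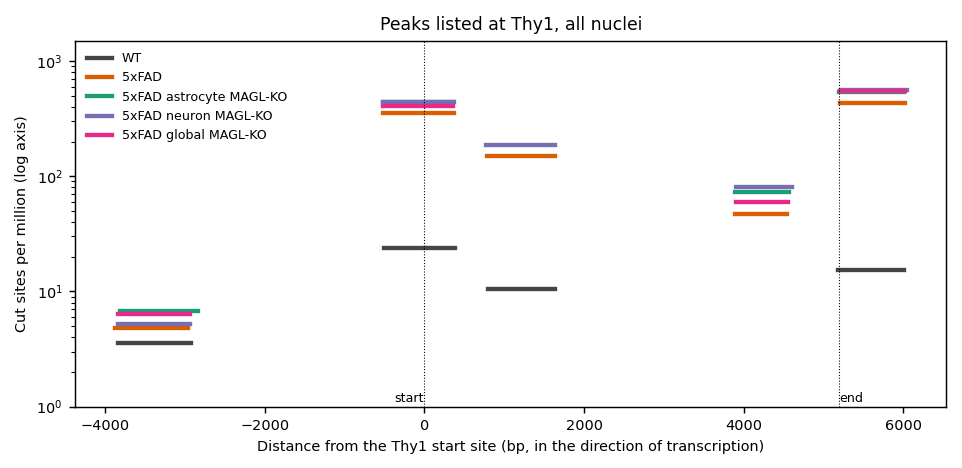
Cut sites in each peak listed near Thy1 in CPM (y axis, logarithmic), drawn as a horizontal line over the peak's width, against the distance from the Thy1 start site in bp (x axis); colours are libraries, all nuclei used, and dotted lines mark the start and end of the gene. The 4 5xFAD libraries lie between 353 and 441 at the promoter and between 435 and 559 at the 3′ end, where WT is at 23.8 and 15.4, while the upstream peak lies between 3.56 and 6.75 in all 5; the astrocyte-KO line is hidden behind the neuron-KO line at the promoter.

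The excess at Thy1 was spread over most excitatory-like nuclei. Among excitatory-like nuclei with at least 10000 cut sites, the share without any cut site in the Thy1 promoter and 3′ end peaks was 62.1% of 2198 in WT [60.0, 64.1]. It was 8.72% of 1903 nuclei in 5xFAD, 7.87% of 2288, 5.32% of 1636 and 7.52% of 2685 in the KO-labelled libraries. The median nucleus held 0 such cut sites in WT and 12, 15, 21 and 14 in the others. Microglia-like nuclei are not neurons and were not filtered on cut sites. Their share without one was 97.7% in WT [87.7, 99.9] and 92.8%, 96.7%, 94.2% and 88.5% in the others. Their medians were 7181 to 11844 cut sites per nucleus, against 17760 to 23523 in the excitatory-like nuclei. Among other glia, oligodendrocyte precursor-like nuclei held 12.4 CPM of cut sites in WT and 105, 40.7, 54.0 and 38.5 in the others, a log2 ratio of 5xFAD to WT of 3.09 [1.79, 4.70]. Astrocyte-like nuclei held 22.3 and then 87.9, 79.7, 43.3 and 148, with a ratio of 1.98 [0.94, 3.16]. Oligodendrocyte-like nuclei held 1.23, from 3 cut sites, and then 13.7, 61.1, 11.3 and 18.1.

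By class, the same pair of Thy1 peaks separated the neurons far more widely in the 5xFAD libraries than in WT. In WT the neuronal classes lay between 13.8 (CA2-like) and 51.3 (deep cortical-like) CPM of cut sites. CA1-like nuclei held 35.7 in WT and 1514, 1697, 1763 and 1515 in the others, 42.4 to 49.4 times WT. Subicular-like nuclei held 51.0 in WT and 1910, 2309, 1942 and 1926. Dentate granule-like nuclei held 42.8 and then 930, 1228, 1242 and 1187. Inhibitory-like nuclei were lower, at 34.5 in WT and 435, 496, 649 and 531. CA3-like nuclei, at 38.7 in WT and 225, 300, 415 and 272, were 5.81 to 10.7 times WT. CA2-like nuclei, only 20 to 34 per library, held 13.8, 44.4, 36.5, 46.0 and 19.9. Their intervals in WT [4.50, 32.3] met those of each other library.

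In 5xFAD, Thy1 RNA was likewise highest in subicular-like and CA1-like nuclei and, among the named neuron subclasses, lowest in CA2-like nuclei. The classes between were not in the same order as in chromatin. In WT the neuronal classes held between 24.5 CPM (CA2-like) and 53.1 CPM (deep cortical-like), and neighbours in that order had intervals that met. In 5xFAD the order opened out: subicular-like 366 CPM [336, 398], CA1-like 291 [282, 301], deep cortical-like 162 [148, 177], dentate granule-like 141 [136, 147], Adarb2/Vip-lineage-like 123 [115, 132], Lhx6/Sst-lineage-like 111 [100, 123], upper cortical-like 92.0, CA3-like 67.0 and CA2-like 36.2. The first 4 of these each stood above the next without overlap of intervals. Between the 2 interneuron lineages, and between CA3-like and microglia-like nuclei, the intervals met.

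CA1-like nuclei held 44.2, 291, 293, 404 and 264 CPM of Thy1, and subicular-like nuclei 51.1, 366, 579, 630 and 433. In dentate granule-like nuclei the level was 34.7 CPM in WT and 141, 214, 250 and 197 in the others. In each of these classes WT was the lowest library and the neuron-KO library the highest. Inhibitory-like nuclei held 41.3, 122, 137, 202.3 and 121 CPM, and CA3-like nuclei 37.0, 67.0, 73.5, 105 and 67.1. The inhibitory-like nuclei also held excitatory markers, which summed to 931, 992, 856, 1038 and 769 CPM. The neuron-KO library was thus highest there both in Thy1 and in excitatory markers, and the part of excitatory RNA in these Thy1 values was not tested. Log2 ratios of 5xFAD to WT were 2.84 [2.49, 3.204] in subicular-like, 2.72 [2.60, 2.85] in CA1-like, 2.03 [1.91, 2.14] in dentate granule-like, 1.56 [1.42, 1.70] in inhibitory-like, 0.86 [0.61, 1.11] in CA3-like and 0.56 [-0.23, 1.37] in CA2-like nuclei. The intervals of the first 2 and of the last 2 met, and the remaining neighbours in this order were apart.

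**Figure D2:**
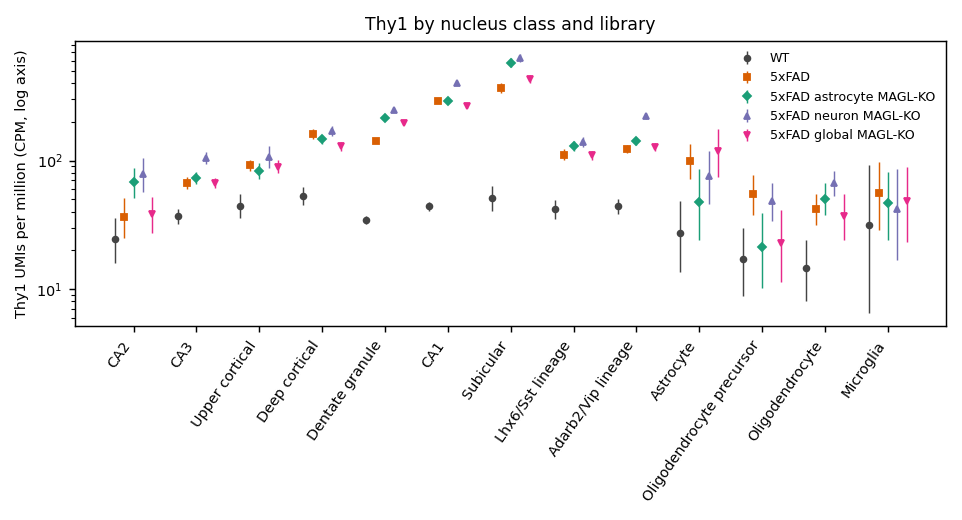
Thy1 RNA in CPM (y axis, logarithmic) by nucleus class (x axis), 1 symbol per library, with bars for the 95% counting interval. WT lies between 24.5 and 53.1 CPM over the neuronal classes, while the 5xFAD libraries range from 36.2 CPM in CA2-like to 630 CPM in subicular-like nuclei.

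Thy1 UMIs were also read in nuclei that are not neurons, and the source of these UMIs was not tested. Oligodendrocyte-like nuclei held 14.5, 41.9, 50.7, 66.8 and 37.3 CPM of Thy1, and microglia-like nuclei 31.5, 55.5, 46.5, 42.1 and 48.8 from 3 to 12 UMIs per library. Astrocyte-like nuclei held 27.3, 99.4, 47.8, 76.3 and 118 CPM of Thy1. The excitatory markers summed to 343, 566, 252, 321 and 445 CPM in the same nuclei, against 2128 to 2291 in excitatory-like nuclei. They summed to 155, 154, 233, 184 and 215 CPM in oligodendrocyte-like and 200, 73.9, 178, 42.0 and 132 in microglia-like nuclei. The inhibitory markers summed to more, 814 to 1470 CPM in astrocyte-like and 2939 to 3777 in oligodendrocyte-like nuclei. In astrocyte-like nuclei only 3 to 6 of these 7 markers were detected. The part of neuronal RNA in these Thy1 values was not tested. The share of excitatory-like nuclei with a Thy1 UMI was 49.9%, 82.3%, 83.5%, 89.98% and 81.5%, at medians of 13769 to 17340 UMIs per nucleus. In microglia-like nuclei it was 6.98%, 14.5%, 9.76%, 13.5% and 8.33%, at medians of 2039 to 2892. With each nucleus thinned to 1000 UMIs, the excitatory-like share was 3.82% in WT and 15.5%, 18.4%, 22.0% and 17.9% in the others. The microglia-like share was then 4.76%, 4.88%, 0.826%, 3.92% and 6.32%. In WT the excitatory-like share [3.21, 4.52] lay within the microglia-like interval [0.582, 16.2], which rests on 42 nuclei. The WT oligodendrocyte-like share was 1.84% [0.678, 3.96] of 326 nuclei, whose interval meets the excitatory-like one, while in CPM the same classes were apart, at 14.5 [8.13, 24.0] and 41.0 [39.5, 42.6]. In the 5xFAD libraries the excitatory-like share stood above every microglia-like interval, whose upper limits were at most 13.5%.

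Over all excitatory-like nuclei, Thy1 was higher in 5xFAD than in WT by 2.04 [1.98, 2.10] on the log2 scale. A gene counted as past the fold when its log2 ratio was at least 0.5 or at most -0.5. Thy1 was the only member of 9 past it in this comparison, and none was lower, where 1.37% of the 14979 genes with at least 100 UMIs were higher and 2.38% lower. Likewise 1 of 9 members, Thy1, was higher in inhibitory-like nuclei (2.16% of genes), in dentate granule-like nuclei (0.790%) and in CA1-like nuclei (1.45%). Within the inhibitory-like nuclei, those of the Adarb2/Vip lineage held 7.26 CPM of Aph1a in WT and 11.0 in 5xFAD, from 35 and 69 UMIs, a log2 ratio of 0.60 with an interval [-0.01, 1.23] that includes 0. In oligodendrocyte-like nuclei only 3 members had enough UMIs to be counted and 0 were higher (4.18% of genes). Of the 5 genes on either side of Thy1, 1 had enough UMIs: Usp2, which encodes a ubiquitin protease, held 44.7 CPM in WT and 40.0 in 5xFAD.

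The 3 KO-labelled libraries were each set against the same 5xFAD library, so these comparisons share it. Their gene-wide median was itself shifted: over 15269, 14965 and 15299 genes the median log2 ratio was 0.22, 0.19 and 0.04. Against this, Thy1 in excitatory-like nuclei was 0.25 [0.22, 0.29], 0.63 [0.59, 0.66] and 0.09 [0.06, 0.13] above 5xFAD, each at or above its own shift. The mix of the sexes differed between these libraries, and within nuclei of 1 sex the neuron-KO ratio was 0.60 [0.55, 0.65] (Xist nuclei) and 0.27 [0.19, 0.35] (Y nuclei), the latter short of the fold. Size factors in place of totals lower every log2 ratio in these 3 comparisons by 0.25, 0.23 and 0.06, and the Thy1 ratios were then -0.0016, 0.40 and 0.03, none past the fold. In CA1-like nuclei Thy1 was 0.01, 0.47 and -0.14, and in dentate granule-like nuclei 0.60, 0.82 and 0.48.

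The dentate granule-like excess was smaller without 1 cluster of nuclei, and in the global-KO library was then nearly gone. The leading genes of this cluster by fold were Gm30551, Gm6999, Plpp4, Pappa, Col27a1 and Penk. Its 1398 nuclei lay to 96.4% in the KO-labelled libraries. It made up 1.78%, 1.60%, 22.5%, 26.3% and 32.0% of dentate granule-like nuclei. Inside it Thy1 stood at 36.4, 229, 388, 398 and 317 CPM, the first 2 values from only 29 and 22 nuclei. Without it, the 3 ratios of Thy1 to 5xFAD in dentate granule-like nuclei were 0.24, 0.45 and 0.02, and in all excitatory-like nuclei 0.16, 0.55 and -0.01. Leaving this cluster out was chosen after the data were seen.

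Thy1 also differed within libraries between nuclei of the sexes, taken as nuclei with Xist UMIs and no Y-linked UMI, or the reverse; 10.6% to 15.1% of nuclei held both and were left out. Excitatory-like Xist nuclei held 41.0, 184, 236, 279 and 212 CPM of Thy1. Excitatory-like Y nuclei held 40.0, 162, 159, 195 and 139. Xist and Y nuclei were level in WT and apart in the other 4. The log2 ratio of Xist to Y nuclei was 0.04 [-0.09, 0.16] in WT, 0.18 [0.13, 0.24] in 5xFAD, and 0.57 [0.51, 0.62], 0.52 [0.44, 0.59] and 0.62 [0.56, 0.67] in the KO-labelled libraries. In dentate granule-like nuclei the ratios were 0.10, 0.55, 0.93, 0.85 and 1.20. Animals were not identified, so a few animals of each sex may stand behind each value and nuclei are not replicates. For App, the same ratio in excitatory-like nuclei was -0.02, -0.02, 0.06, 0.11 and 0.15.

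Chromatin showed the sexes apart in the same direction. In excitatory-like Xist nuclei the Thy1 promoter and 3′ end peaks held 44.6, 1025, 1373, 1242 and 1302 CPM of cut sites, and in Y nuclei 38.9, 820, 778, 814 and 760. The Y nuclei of the 4 5xFAD libraries thus lay within 760 to 820, while the Xist nuclei of the KO-labelled libraries were all above those of 5xFAD. The granule cluster named above was mostly of Xist nuclei in those 3 libraries, with 365 Xist to 11 Y, 286 to 8 and 619 to 14, against 19 to 8 in WT and 5 to 16 in 5xFAD. Without it the 5 excitatory-like ratios were 0.03, 0.18, 0.42, 0.43 and 0.46, and the granule-like ones 0.08, 0.55, 0.46, 0.45 and 0.71. In CA1-like nuclei, which do not hold it, they were 0.11, 0.01, 0.23, 0.28 and 0.43. Set against 5xFAD within Y nuclei alone, excitatory-like Thy1 was -0.02, 0.27 and -0.22, and within Xist nuclei 0.36, 0.60 and 0.21.

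**Figure D3:**
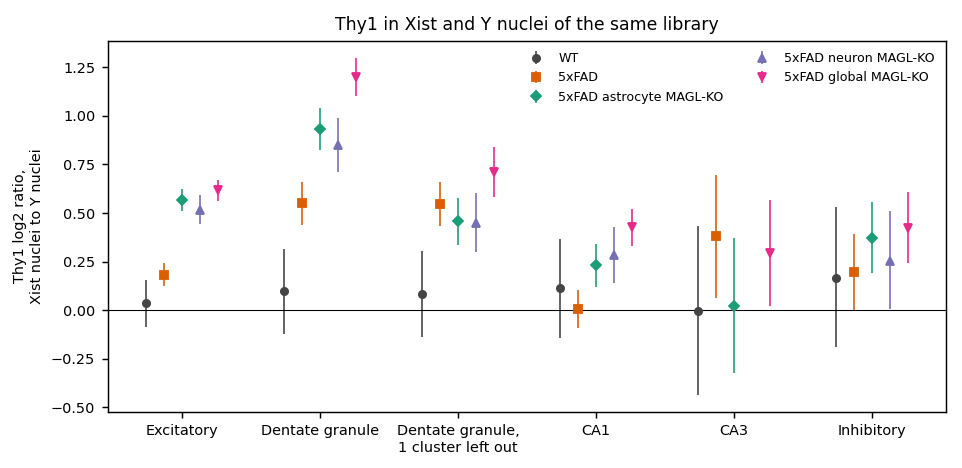
Log2 ratio of Thy1 CPM in Xist nuclei to that in Y nuclei of the same library (y axis), by class (x axis), with dentate granule-like nuclei also shown without 1 cluster; symbols are libraries and bars the 95% counting interval, and no symbol is drawn where a group was too small. In excitatory-like nuclei WT lies at 0.04, 5xFAD at 0.18 and the 3 KO-labelled libraries between 0.52 and 0.62.

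App (ENSMUSG00000022892) encodes the precursor protein that all the secretases below act on. The gene lies on the minus strand at chr16:84949685-85173766 of mm10. App RNA was found in every class and was highest in oligodendrocyte-like nuclei, at 1486, 1527, 1309, 1554 and 1448 CPM. Excitatory-like nuclei held 492, 532, 544, 598 and 571 CPM and inhibitory-like nuclei 584, 641, 651, 676 and 640. It was lowest in astrocyte-like and microglia-like nuclei. The astrocyte-like nuclei held 151, 224, 257, 245 and 338 CPM from 59 to 97 UMIs per library. The microglia-like nuclei held 189, 245, 217, 234 and 268, also from few UMIs. Within the neurons, dentate granule-like nuclei were the lowest class, at 395, 425, 434, 474 and 471 CPM, and Adarb2/Vip-lineage-like nuclei were the highest, at 657, 688, 716, 718 and 709.

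In excitatory-like nuclei the differences of App RNA between libraries were small beside those of Thy1. In astrocyte-like nuclei, from few UMIs, App was higher past the fold in each 5xFAD library against WT. It was also past the fold there in the global-KO library against 5xFAD. The share of all genes past the fold in that class is not given here. In excitatory-like nuclei the log2 ratio of 5xFAD to WT was 0.11 [0.09, 0.13], where the gene-wide median was -0.01. It was 0.18 [0.13, 0.23] in CA1-like and 0.02 [-0.05, 0.09] in CA3-like nuclei. Against 5xFAD, App was 0.03, 0.17 and 0.10 in the astrocyte-KO, neuron-KO and global-KO libraries. With size factors these became -0.22, -0.06 and 0.04, so that only the last kept its direction. Of the 10 nearest genes, 6 had enough UMIs, and their log2 ratios of 5xFAD to WT ran from -0.42 to 0.06. Against 5xFAD the medians over the measured neighbours were 0.66, 0.60 and 0.02.

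Although App RNA differed little in excitatory-like nuclei, chromatin peaks marked the exons of App in the 5xFAD libraries. App-201, the transcript of 16 exons and 695 codons, has 15 exons after the first. WT listed a peak over 3 of them, exons 2, 3 and 16. Each of the 4 5xFAD libraries listed a peak over 13, all but exons 8 and 14, and 10 of the 13 were without a peak in WT. Over 178606 later exons of other protein-coding genes, the share with a peak in the library and none in WT was 1.23%, 0.898%, 1.56% and 1.63%. App-202, with 17 exons and 751 codons, adds an exon that encodes the Kunitz protease inhibitor domain, and 0 of the 5 libraries listed a peak over it.

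A pair of exons is printed to show the sequences behind this contrast. The first, exon 15 of App-201 (147 bp, chr16:84962722-84962868), encodes the later part of amyloid-beta and the membrane span, and had a peak in the 5xFAD libraries only. The second is the exon of App-202 that is not in App-201 (168 bp, chr16:85043576-85043743), over which no peak was listed. Both are on the minus strand of GRCm38 (GENCODE vM21), written 5′ to 3′ with no part in capitals.
App-201 exon 15: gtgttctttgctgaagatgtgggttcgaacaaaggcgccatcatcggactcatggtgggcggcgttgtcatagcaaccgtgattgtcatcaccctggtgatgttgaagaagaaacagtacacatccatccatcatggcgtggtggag
App-202 exon 7: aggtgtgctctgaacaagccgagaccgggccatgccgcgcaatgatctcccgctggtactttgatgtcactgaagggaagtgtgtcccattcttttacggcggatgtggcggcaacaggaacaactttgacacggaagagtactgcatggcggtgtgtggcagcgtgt

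The peak over exon 15 held 2.87 CPM of cut sites in 5xFAD [2.38, 3.43] and 4.81, 4.14 and 4.39 in the KO-labelled libraries. Exon 16, the last exon, which holds the stop codon, had a peak in all 5 libraries, at 8.29 in WT and 12.96, 19.4, 20.2 and 17.4 in the others. WT was the lowest there, with an interval [7.51, 9.13] below the other 4, but the peaks did not cover the same stretch. The centre of the WT peak lay 681 bp from the centre of this 990 bp exon and the other centres 435.5 to 512.5 bp. Exon 3 held 2.82, 4.28, 6.37, 5.15 and 5.22. Exon 2 held 2.21 [1.81, 2.67] in WT and 2.31 [1.87, 2.81] in 5xFAD, whose intervals met, and 3.59, 3.54 and 3.48 in the KO-labelled libraries. The peaks sat on the exons: the median distance from a peak's centre to the centre of its exon was 43.5, 23.5, 40.5 and 33.0 bp in the 5xFAD libraries and 270 bp over the 3 peaks of WT. The signal at single exons was low beside Thy1, and each of these peaks is the authors' call on 1 library.

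Regions of App without an exon did not show the same. Joined over libraries, the listed peaks over App fell into 14 regions that overlap an exon of App-201 and 43 that do not. Of the 14, 6 were listed in all 5 libraries, 8 in the 4 5xFAD libraries and not in WT, and 0 in WT only. Of the 43, 19 were listed in all 5, 2 in the 4 5xFAD libraries and not in WT, and 3 in WT only. Over regions listed in all 5, the median log2 ratio to WT was 0.45, 0.89, 0.77 and 0.77 at the 6 with an exon, and -0.02, 0.0018, -0.06 and -0.11 at the 19 without. Peaks joined into a region need not cover the same stretch in each library. WT listed a peak over exons 1, 2, 3 and 16 only, so at the rest of the 6 its peak lay beside the exon.

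**Figure D4:**
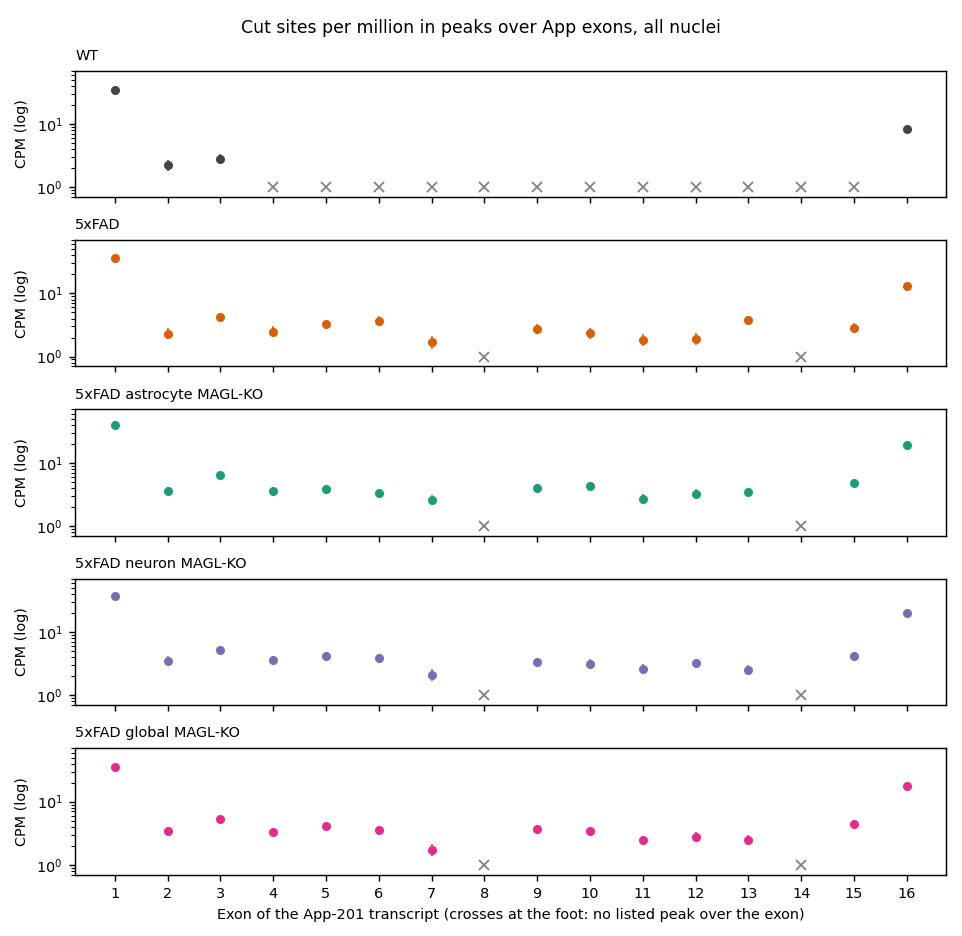
Cut sites in the listed peak over each exon of App-201 in CPM (y axis, logarithmic), by exon number (x axis), 1 panel per library, all nuclei, with bars for the 95% counting interval; a cross at the foot marks an exon over which no peak was listed. Exon 1 lies between 34.8 and 39.5 in all 5 panels, and WT has crosses at 12 of the 15 later exons where each 5xFAD library has 2.

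By class, the App exons without a peak in WT held cut sites in every named neuron class. In the 5xFAD library CA1-like and subicular-like nuclei were the highest of these classes and CA2-like nuclei the lowest, as for Thy1 RNA. Between them the order was not that of Thy1 RNA, but the classes that changed places had intervals that met. Deep cortical-like nuclei [8.19, 24.6] and dentate granule-like nuclei [20.5, 27.1] are an example. Summed over these exon peaks, CA1-like nuclei held 44.4, 50.5, 48.6 and 45.4 CPM of cut sites in the 4 5xFAD libraries and subicular-like nuclei 33.8, 68.9, 44.3 and 81.8. Adarb2/Vip-lineage-like nuclei held 23.9, 33.5, 56.7 and 35.8, dentate granule-like nuclei 23.6, 40.4, 33.6 and 38.2, and CA3-like nuclei 15.9, 23.6, 20.9 and 10.4. In the same 4 libraries the Adarb2/Vip-lineage-like nuclei held 1035, 1005, 1214 and 974 CPM of RNA of the excitatory markers. Like the exon signal, this was highest in the neuron-KO library. Excitatory-like nuclei themselves held 27.7, 39.2, 33.2 and 33.7 CPM of cut sites on these exons. The part of excitatory nuclei in the Adarb2/Vip-lineage-like signal was not tested. Deep cortical-like nuclei held 14.8, 40.2, 14.4 and 16.2, and microglia-like nuclei 6.43, 16.4, 13.8 and 16.1 from 5 to 14 cut sites. Upper cortical-like nuclei held 24.4, 20.0, 5.13 and 12.5, the third value from 4 cut sites. CA2-like nuclei held 1.93, 13.7, 23.0 and 18.1, from 1 to 10 cut sites. Astrocyte-like nuclei held 0 to 2 cut sites per library. Oligodendrocyte-like nuclei, at 18.4, 34.3, 19.7 and 27.2, lay nearer to the neurons here than they did at Thy1, where they held 13.7, 61.1, 11.3 and 18.1. The App exons were chosen for a peak in the 5xFAD libraries and none in WT, so no class has a WT value on them. How much of a class's signal on these exons WT nuclei would also hold was therefore not tested. These oligodendrocyte-like values rest on 30 to 60 cut sites each for App. Split by sex, excitatory-like Xist nuclei held 28.4, 46.1, 37.4 and 39.2 CPM on the App exons and Y nuclei 25.5, 32.8, 17.8 and 29.4. The intervals met in 5xFAD and were apart in the KO-labelled libraries. The mix of the sexes differed between the libraries compared.

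At the promoter, the App values lay close together in all 5 libraries. The peak over the start site and exon 1 held 34.8, 36.8, 39.5, 37.2 and 35.8 CPM of cut sites. The 250 bases before the RefSeq start on the minus strand (chr16:85173708-85173957, GRCm38.p6) are printed because they lie within this peak, which was 896 to 922 bp wide. This window also holds the first bases of exon 1 of App-201, which starts before the RefSeq start. Capitals mark GGGCGG, searched on both strands as GGGCGG and CCGCCC, which 32.7% of 32851 RefSeq promoter windows of that length hold.
App promoter: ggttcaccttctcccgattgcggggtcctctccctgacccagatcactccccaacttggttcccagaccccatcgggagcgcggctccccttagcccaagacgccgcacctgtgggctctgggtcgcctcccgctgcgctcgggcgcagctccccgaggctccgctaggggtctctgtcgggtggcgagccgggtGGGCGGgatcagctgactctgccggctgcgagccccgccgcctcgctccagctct

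Promoter accessibility was level over the other members too. Of 9 promoters, Thy1 alone was past the fold in 5xFAD against WT, where 1.07% of 16898 promoters with enough cut sites were higher and 0.823% lower. The other 8 ran from -0.06 to 0.10 on the log2 scale in that comparison. Against 5xFAD, 0 of 9 were past the fold in the astrocyte-KO library (1.72% of promoters higher, 0.932% lower), the neuron-KO library (1.53% and 1.36%) or the global-KO library (1.57% and 1.86%). There the 8 ran from -0.12 to 0.10, from -0.24 to 0.02 and from -0.21 to -0.04, and Thy1 stood at 0.33, 0.32 and 0.20. The medians of the 8 were -0.03, -0.08 and -0.13, beside -0.02, -0.08 and -0.11 over all promoters counted.

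Adam10 (ENSMUSG00000054693, chr9:70678997-70780229, plus strand) encodes the main alpha-secretase of neurons. Its RNA was highest in microglia-like nuclei, at 525, 379, 388, 360 and 439 CPM. With each nucleus classed by its highest marker score, the highest class was instead oligodendrocyte-like in all 5 libraries. Oligodendrocyte-like nuclei held 243, 260, 215, 196 and 255 CPM, excitatory-like nuclei 114, 120, 119, 115 and 123, and CA3-like nuclei, the lowest neurons, 80.2, 79.8, 79.6, 80.6 and 83.1. Neuronal levels lay close together between libraries, and the excitatory-like log2 ratios were 0.08 for 5xFAD to WT and -0.01, -0.05 and 0.04 to 5xFAD. Oligodendrocyte precursor-like nuclei held 177, 196, 123, 119 and 141 CPM, with log2 ratios to 5xFAD of -0.67 [-1.16, -0.21] and -0.72 [-1.14, -0.31] in the astrocyte-KO and neuron-KO libraries. Only 2 members had enough UMIs to be counted there. No share of all genes past the fold is given for this class, so how common such ratios were there cannot be judged.

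Bace1 (ENSMUSG00000032086, chr9:45838580-45864399, plus strand) encodes beta-secretase. Like App, it was highest in oligodendrocyte-like nuclei, at 85.2, 69.3, 74.5, 98.2 and 74.6 CPM. Excitatory-like nuclei held 23.0, 23.5, 27.3, 27.4 and 24.7, and inhibitory-like nuclei 26.8, 26.4, 31.2, 30.8 and 27.8. Microglia-like nuclei held 1 to 4 UMIs per library. The excitatory-like ratio of 5xFAD to WT was 0.03 [-0.07, 0.13], and the 3 ratios to 5xFAD were 0.22, 0.22 and 0.07, close to the gene-wide medians.

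The gamma-secretase genes fell into different patterns over the classes. Psen2 (ENSMUSG00000010609, chr1:180227004-180263438, minus strand) encodes a presenilin, the catalytic subunit. It held 9.11, 8.96, 12.4, 10.8 and 9.25 CPM in excitatory-like nuclei. In oligodendrocyte-like nuclei it held 24.2, 17.7, 21.9, 20.9 and 11.9, from 8 to 26 UMIs each. Its ratio to 5xFAD in the astrocyte-KO library was 0.47 [0.32, 0.63], just short of the fold, and it was 0.22 with size factors and 0.88 after thinning each nucleus to 1000 UMIs.

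Ncstn (ENSMUSG00000003458, chr1:172066013-172082795, minus strand) encodes nicastrin, the large glycoprotein of the complex. It was highest in microglia-like nuclei, at 116, 92.4, 81.4, 120 and 68.3 CPM from 11 to 21 UMIs per library. With classes by highest marker score this held in WT and the astrocyte-KO library but not in the other 3, where oligodendrocyte-like or oligodendrocyte precursor-like nuclei were highest. Excitatory-like nuclei held 19.9, 19.7, 23.9, 25.6 and 20.0. Of the excitatory subclasses, dentate granule-like nuclei held 22.4, 24.1, 25.9, 26.9 and 23.8.

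The APH-1 subunits help to assemble the complex. Aph1a (ENSMUSG00000015750, chr3:95893969-95898288, plus strand) held 7.72, 8.88, 10.5, 10.5 and 8.84 CPM in excitatory-like nuclei and 21.3, 27.4, 21.9, 29.0 and 22.4 in oligodendrocyte-like nuclei. Aph1b (ENSMUSG00000032375, chr9:66775202-66795490, minus strand) went the other way, with 2.91, 4.03, 7.94, 5.63 and 5.97 CPM, from 3 to 8 UMIs, in oligodendrocyte-like nuclei and 10.8, 11.9, 14.0, 12.01 and 12.2 in excitatory-like nuclei. Over the broad classes Aph1b was highest in astrocyte-like nuclei in the neuron-KO library and in oligodendrocyte precursor-like nuclei in the other libraries. With classes by highest marker score, excitatory-like nuclei were instead highest in every library. Within the neurons Aph1b was highest in CA2-like nuclei, at 30.1, 37.3, 37.9, 27.2 and 30.3, and in subicular-like nuclei, at 35.2, 30.1, 40.3, 36.2 and 28.0. Dentate granule-like nuclei held 6.44, 6.66, 7.66, 8.24 and 6.87, so the CA2-like level was above the dentate level in each library. Aph1b has a near-identical neighbour, Aph1c, and how reads that match both were assigned was not tested.

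Psenen (ENSMUSG00000036835, chr7:30561863-30563627, minus strand) encodes the presenilin enhancer, which triggers cleavage of presenilin into its active form. It was the member other than Thy1 that differed most between libraries. Excitatory-like nuclei held 9.05, 7.96, 12.7, 14.2 and 8.97 CPM, so that the astrocyte-KO and neuron-KO libraries lay above the other 3. The ratios to 5xFAD were 0.68 [0.52, 0.84], 0.84 [0.67, 1.00] and 0.17 [0.01, 0.33]. The same 2 libraries were the highest in CA1-like nuclei, at 7.61, 6.65, 11.8, 13.8 and 8.05 CPM, and in inhibitory-like nuclei, at 10.9, 10.1, 17.4, 16.2 and 11.8. Microglia-like nuclei held 73.6, 41.6, 65.9, 24.0 and 24.4 CPM, from few UMIs and with wide intervals. With size factors the excitatory-like ratios were 0.42 and 0.61, so the first is no longer past the fold.

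Counted in excitatory-like nuclei, 1 of 9 members (Psenen) was higher past the fold in the astrocyte-KO library against 5xFAD, where 21.7% of genes were higher and 1.30% lower. In the neuron-KO library 2 of 9 were higher (Psenen and Thy1, the latter not with size factors), where 20.2% of genes were higher and 1.72% lower. In the global-KO library 0 of 9 were, where 4.86% were higher and 1.75% lower. No member was lower past the fold in any of the 3 in excitatory-like nuclei. The first 2 shares are near the background, so the counts say nothing particular of the members. Over the 7 secretase genes the median log2 ratio was 0.03 for 5xFAD to WT, against a gene-wide median of -0.01, and 0.24, 0.24 and 0.04 to 5xFAD, against 0.22, 0.19 and 0.04.

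**Figure D5:**
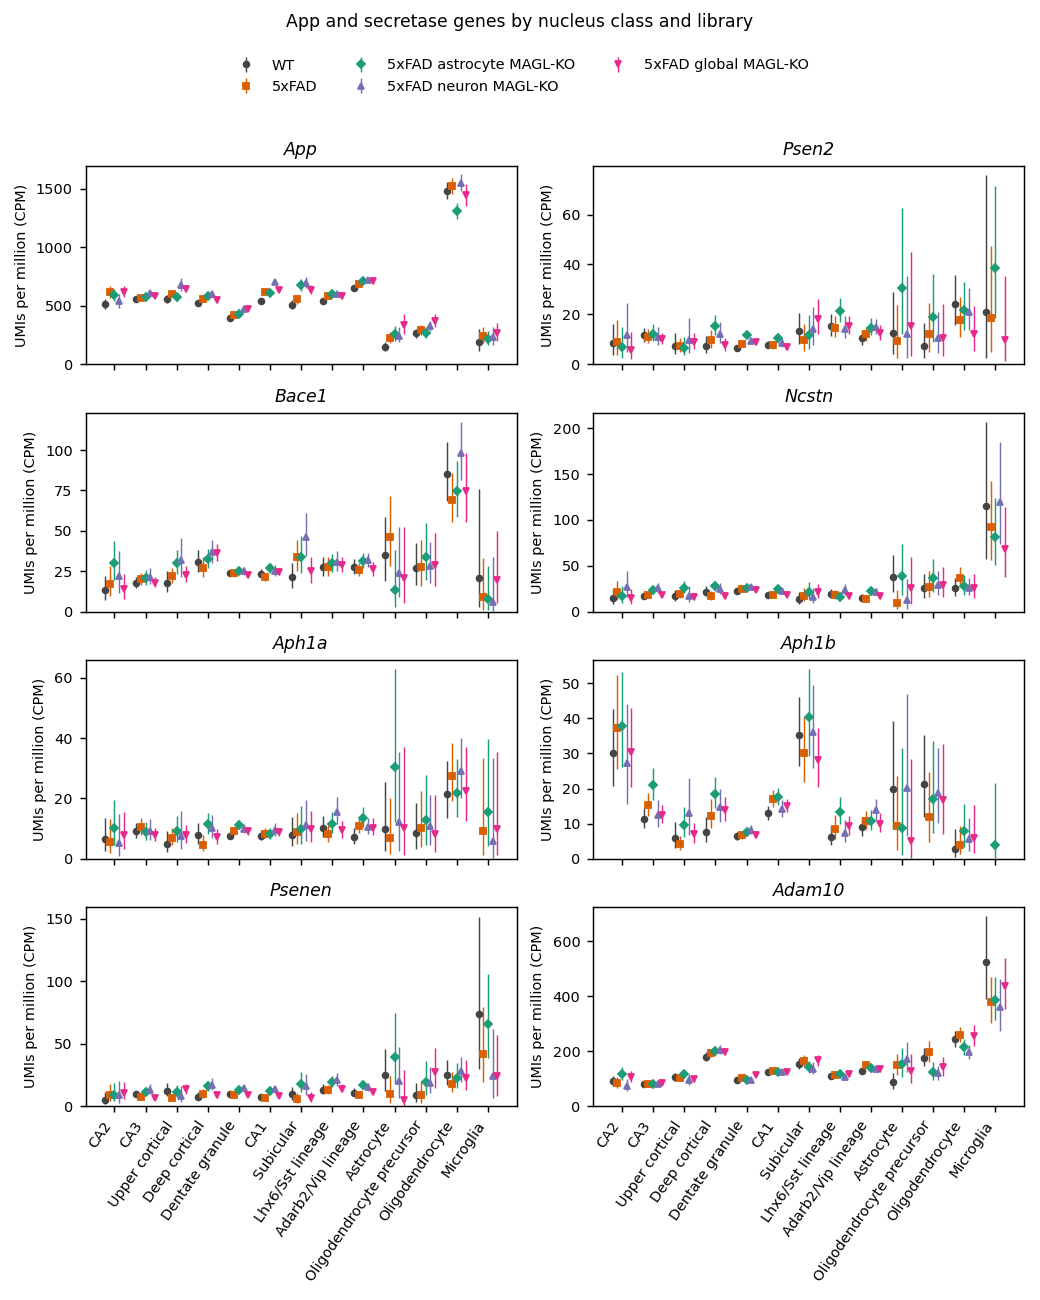
RNA level in CPM (y axes, linear from 0) of App and the 7 secretase genes by nucleus class (x axis), 1 panel per gene and 1 symbol per library, with bars for the 95% counting interval; values of 0 UMIs are not drawn. App and Bace1 are highest in oligodendrocyte-like nuclei (up to 1554 and 98.2 CPM), and Adam10 and Ncstn in microglia-like nuclei (up to 525 and 120). With classes by marker score Adam10 is highest there in 0 libraries and Ncstn in 2. Within the neurons Aph1b is highest in CA2-like and subicular-like nuclei (27.2 to 40.3).

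A list of 22 other genes of the pathway was counted in excitatory-like nuclei. For 5xFAD against WT 0 of 22 were higher and 2 lower past the fold, Bace2 and Gsap, where 1.37% of all genes were higher and 2.38% lower. Bace2, a relative of beta-secretase, held 4.13, 1.91, 5.00, 5.71 and 5.41 CPM, so that 5xFAD was the lowest of the 5 libraries. Its log2 ratio was -1.11 [-1.43, -0.81] to WT, and the 3 ratios to 5xFAD were 1.39, 1.58 and 1.503. Gsap, which encodes a gamma-secretase activating protein, held 4.57, 2.90, 4.39, 4.21 and 3.78. Against 5xFAD, 2 of 22 were higher in the astrocyte-KO library (Bace2 and Gsap), 4 in the neuron-KO library and 1 in the global-KO library (Bace2), and 0 were lower. Of all genes 21.7%, 20.2% and 4.86% were higher in the same comparisons, so these counts are at or below the background and say nothing particular of the list. The 4 were Bace2, Gsap, Rer1, an assembly factor of gamma-secretase that held 10.2, 10.5, 14.5, 15.5 and 10.3 CPM, and Aplp1, a paralogue of App that held 90.8, 93.8, 130, 143 and 98.1. In microglia-like nuclei 2 of 7 genes of the list with enough UMIs were higher in 5xFAD than in WT and 1 was lower, where 17.1% of the 585 genes counted were higher and 15.2% lower. For Bace2 and Gsap in excitatory-like nuclei the 5xFAD library sets each ratio, since it enters all 4 comparisons.

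The members' patterns over classes and libraries were compared over 65 sums of a class in a library, which share library and depth, among 12848 genes. The genes most like App were Shtn1 (Pearson r 0.92), Prkcz (0.90) and Lrrc8b (0.90), and those most like Thy1 were Ckmt1 (0.73), Sh2d5 (0.70) and Crocc (0.70). Bace1 was most like Pik3r3 (0.84), Eml1 (0.82) and Abca2 (0.81), and Adam10 most like Ppard, Pcm1 and Mbnl1 (all 0.86). Among the members, Psenen and Ncstn went together most closely (r = 0.72), then Adam10 and Ncstn (0.65), Adam10 and Psenen (0.62), and App and Bace1 (0.60). Aph1b and Ncstn went most in opposite directions (-0.59). App and Thy1 had an r of 0.23. These correlations describe where the RNA lies and carry no test.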

How the data were processed

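Nuclear RNA and open chromatin were measured together in 5 libraries of mouse hippocampus, 1 per group. The authors aligned the reads to mm10 with Cell Ranger ARC 2.0.0 and used Seurat, per the submitters' processing notes and the file headers; the steps in between were not given in the sources used here. The deposited values were raw counts per nucleus, UMIs per gene and cut sites per peak, per the file headers. Most cut-site counts were even, so intervals for them used fragments of 2 cut sites. Peaks were listed separately for each library.

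From these counts, nuclei were kept from 500 genes and up to 5% mitochondrial UMIs, and the nuclei with the highest Scrublet doublet scores (scanpy 1.11.5) were removed, as many as a rate of 0.8% per 1000 nuclei gives. Nuclei were clustered without the 9 members, on 2000 variable genes and 40 principal components (15 neighbours, Leiden resolution 2, igraph 0.11.9). A cluster took the name of a non-neuronal class or a neuron subclass from at least 3 raised markers and limits on marker scores. The excitatory class was named from Slc17a7 and Gad2 levels with low non-neuronal scores. The inhibitory class was named from its marker score and the same genes. Classes with under 20 nuclei in a library were not used there. UMIs were summed per class and library and given as CPM of the class total. Ratios were log2 of CPM with no pseudocount, given from 20 UMIs over both libraries, and counts of genes past a log2 ratio of 0.5 used genes with at least 100. Intervals were exact Poisson, Clopper-Pearson or conditional binomial at 95%, and cover counting error only. The ratio and its interval were tested on simulated Poisson counts with known ratios, the model that the interval assumes. The other steps were not tested in this way. Python 3.11.15, numpy 2.4.6, scipy 1.17.1 and pandas 2.3.3 were used.

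All 9 members are named, the pathway genes past the fold are named, and for likeness the 3 genes with the highest Pearson r of log2(CPM + 5). Members and lists were chosen with earlier results of these data known. Gene positions were taken from the deposited features and GENCODE vM21, which is of the same build, and promoters from RefSeq (GRCm38.p6), where 7 of 9 members matched. Alternatives were size factors, thinning to 1000 UMIs, a pseudocount, means over nuclei, classes by marker score, other filters on UMIs and peaks, and leaving out 1 granule cluster.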

Additional observations from a re-analysis of the deposited data

How the results depend on the processing

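Values were recomputed under other settings, each changed alone; of 158 comparisons with the main results, 44 moved beyond the counting interval (or, for counts, by over 1.5 times) and 114 did not. Of the further comparisons for single members, 37 moved and 103 did not. None of the results that were called reversed. Among chromatin values, only the Thy1 ratios and the counts of other promoters past the fold had other settings, and these stayed within the limits. For the Thy1 ratios, however, an overlap of at least 50% and peaks of at least 100 cut sites changed no value. Only scaling to regions listed in all 5 libraries did. A pseudocount likewise cannot change which class is highest, so some comparisons that did not move could not have moved. The log2 ratio of App in excitatory-like nuclei of 5xFAD to WT was 0.14 with size factors and 0.19 after thinning to 1000 UMIs. For the astrocyte-KO, neuron-KO and global-KO libraries against 5xFAD it was -0.22, -0.055 and 0.043 with size factors, -0.0056, 0.13 and 0.081 after thinning, and 0.0037, 0.13 and 0.049 with classes by marker score. The Thy1 ratio of 5xFAD to WT was 2.21 after thinning and 1.92 with a pseudocount of 5 CPM. Against 5xFAD it was -0.0016, 0.40 and 0.034 with size factors, 0.32, 0.69 and 0.26 as means over nuclei, and 0.15, 0.56 and -0.012 with marker scores. After thinning it was 0.27 in the global-KO library. Without the granule cluster it was 0.16, 0.55 and -0.011. Of the 7 other members, 1 was past the fold in 5xFAD against WT after thinning, and in the astrocyte-KO library 0 with size factors, 0 with the pseudocount and 2 after thinning. With marker scores 23 of 45 pairs of member and library kept the same highest class. The ratio of Xist to Y nuclei for Thy1 in the 3 KO-labelled libraries was 0.78, 0.77 and 0.74 after thinning, 0.46, 0.43 and 0.42 with marker scores, and 0.42, 0.43 and 0.46 without the granule cluster. With genes of at least 20 UMIs, 3.71%, 27.1%, 26.0% and 9.08% of all genes were higher past the fold in the 4 comparisons. The cause of these differences was not tested, beyond what each setting changes by construction. No paired analysis was possible because the groups hold single libraries, and no replicate could be left out for the same reason. Depth limits the classes with few nuclei most, above all microglia-like and astrocyte-like nuclei, where the members rest on few UMIs. For 5xFAD against WT, only 1 member had enough UMIs to be counted in each of these 2 classes.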

Other observations

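Among the pathway genes, Gsap, Apbb2 and Numb were read outside the excitatory-like nuclei. In microglia-like nuclei Gsap held 179 CPM in WT, 402 in 5xFAD, and 326, 420 and 410 in the astrocyte-KO, neuron-KO and global-KO libraries, so that WT was the lowest of the 5. Its log2 ratio of 5xFAD to WT there was 1.17 [0.41, 2.01]. In astrocyte-like nuclei Gsap held 256, 162, 209, 253 and 230 CPM, and the ratio of 5xFAD to WT was -0.66 [-1.12, -0.21]. Apbb2, which encodes an adaptor that binds APP, held 221 CPM in microglia-like nuclei of WT and 1183, 973, 985 and 941 in the others, with a ratio of 5xFAD to WT of 2.42 [1.78, 3.14]. Numb, another adaptor, held 2522 and then 1289, 1573, 1135 and 1278, with a ratio of -0.97 [-1.22, -0.71]. Changes past the fold, a log2 ratio of 0.5 in either direction, were common in microglia-like nuclei. There 17.1% of the 585 genes counted were higher past it and 15.2% lower. The share of genes with ratios as large as those of Apbb2, Gsap and Numb was not counted. For astrocyte-like nuclei no share is given here. These classes hold few nuclei, and each gene was singled out after its values were seen.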
